A study of Oryza sativa with 8 samples.

Results

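The genes described here build the cellulose of the secondary cell wall in rice or regulate that program, and they are 7 of the 55801 loci in the deposited expression table. They were taken by locus identifier, with earlier results of these data known, and no threshold on a measured value was part of the rule. The wall-building members are the cellulose synthase genes CESA4 (LOC_Os01g54620), CESA7 (LOC_Os10g32980) and CESA9 (LOC_Os09g25490) and the COBRA-like gene BC1 (LOC_Os03g30250). The regulators are SWN1 (LOC_Os06g04090), SWN2 (LOC_Os08g02300) and MYB46 (LOC_Os12g33070). The symbols CESA4, CESA7, CESA9 and BC1 were found in the RefSeq gene table of assembly ASM3414082v1 at the place that the identifier implies. SWN1, SWN2 and MYB46 had no such match and carry the names given with their identifiers.

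Poly(A) RNA from roots of Oryza sativa was sequenced in 8 libraries, and the series concerns seed priming with carbon dots, which are carbon particles of nanometre size. The 4 groups held 2 libraries each. They were D6_100X, labelled as carbon dot treatment 100X, D6_CK, labelled normal, D4_100X, with the same carbon dot label, and D4_CK, labelled normal. The labels explain neither the D4 and D6 samplings nor the 100X strength, and they name no cultivar, plant age or origin of the replicates, so the p-values below measure the spread between these libraries, which may be technical.

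Grass roots make secondary walls mainly in the water-conducting xylem and in lignified outer layers. Cellulose there is made at the plasma membrane by complexes that need CESA4, CESA7 and CESA9 together, and rice mutants in any of them have brittle culms. BC1 is a membrane-anchored protein of the COBRA family that influences how cellulose crystallizes, and its mutant is brittle as well. SWN1 and SWN2 are NAC transcription factors at the top of the secondary wall program, and MYB46 is a transcription factor below them that switches on wall genes.

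The table gives FPKM, fragments scaled to gene length and to the counted fragments of the library, so levels of different genes can be set side by side per unit of length. The values implied a denominator of 22.87 M fragments in every library, and between 28619 and 30252 loci were above 0. These totals differed by at most 0.0098%, and the sources used here do not say how they arose. They may therefore not be the depth of sequencing, and counting errors below take the recovered numbers as the fragments counted. The listed photosynthesis genes, markers of green tissue, did not exceed 1.98 FPKM in any library. Summed FPKM of the 4 listed root genes was between 1742 and 4522, and none of them was at 0. Replicates lay farther apart at D4, where the median within-group SD over tested loci was 0.148 in D4_100X and 0.139 in D4_CK on the log2 scale, than at D6, where it was 0.087 in D6_100X and 0.088 in D6_CK.

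The 3 cellulose synthase genes were abundant, and all had their lowest level in D6_100X. CESA4 stood at 57.98 and 40.7 FPKM in the D6_100X libraries, at 83.8 and 96.6 in D6_CK, at 233.7 and 171.8 in D4_100X and at 222.6 and 182.9 in D4_CK. CESA7, the highest of the 3 in every library, stood at 64.3 and 47.3 FPKM in D6_100X, 93.7 and 113.3 in D6_CK, 288.7 and 217.4 in D4_100X and 267.5 and 215.3 in D4_CK. CESA9 stood at 56.02 and 35.7 FPKM in D6_100X, 79.1 and 94.3 in D6_CK, 226.3 and 172.1 in D4_100X and 210.2 and 170.8 in D4_CK. For each of them both D6_100X libraries lay below both D6_CK libraries, and all 4 D6 libraries lay below all 4 D4 libraries. The D4_100X and D4_CK libraries overlapped. Between 3018 and 23598 fragments stood behind each of these values, so their counting error was smaller than the gap between replicates.

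BC1 had the same order of groups over a wider range. Its level was 11.3 and 8.29 FPKM in D6_100X, 26.1 and 32.6 in D6_CK, 89.3 and 83.9 in D4_100X and 91.01 and 80.0 in D4_CK, from 486 to 5338 fragments. The 2 D6_100X libraries were the lowest and the 4 D4 libraries the highest, with the D6_CK libraries in between and no overlap between these 3 sets. Among all tested loci within a library, BC1 moved between the 48.6th and the 94.8th percentile of level, whereas CESA7 stayed between the 89.0th and the 98.8th.

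**Figure D1:**
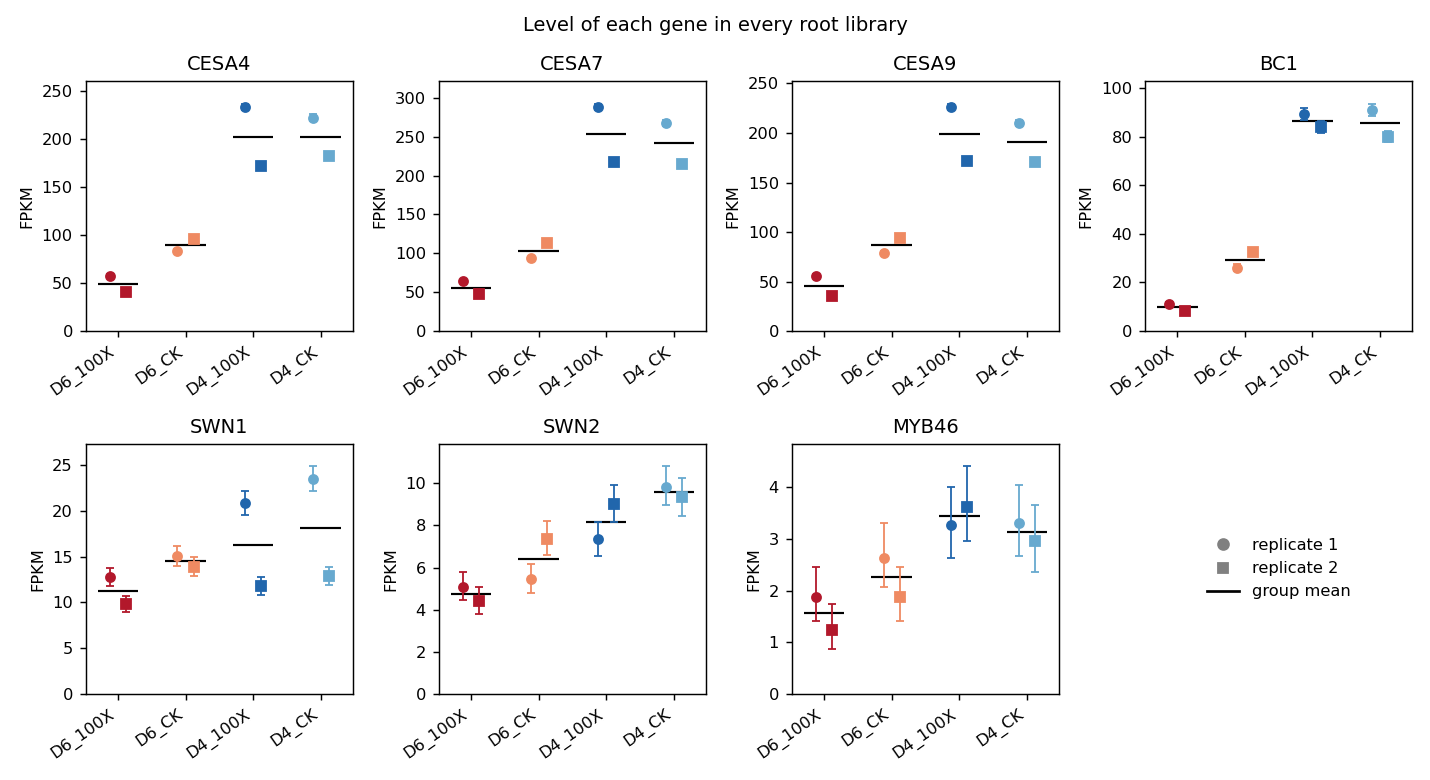
Level in FPKM (vertical axes, each starting at 0) of each of the 7 genes in the 2 libraries of D6_100X, D6_CK, D4_100X and D4_CK (horizontal axes). Circles are replicate 1, squares replicate 2, horizontal lines group means, and error bars exact 95% Poisson intervals of the fragment count, which cover counting error only; BC1 runs from 8.29 FPKM in D6_100X to 91.01 in D4_CK, and the D4_100X and D4_CK points overlap for every gene but SWN2.

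The regulators were present at lower levels and spread less between groups. SWN1 stood at 12.8 and 9.77 FPKM in D6_100X, 15.1 and 13.8 in D6_CK, 20.8 and 11.8 in D4_100X and 23.5 and 12.9 in D4_CK. Its replicates at D4 were farther apart than any of its group means were, with replicate 1 at 1.77 times replicate 2 in D4_100X and 1.82 times in D4_CK. SWN2 stood at 5.09 and 4.41 FPKM in D6_100X, 5.46 and 7.36 in D6_CK, 7.34 and 9.01 in D4_100X and 9.85 and 9.34 in D4_CK. Both D6_100X libraries of SWN2 were below every other library, while its D6_CK and D4_100X libraries overlapped narrowly. MYB46 was the least abundant, at 1.88 and 1.24 FPKM in D6_100X, 2.63 and 1.88 in D6_CK, 3.27 and 3.63 in D4_100X and 3.31 and 2.95 in D4_CK. Only 35 to 102 fragments stood behind the MYB46 values, and the exact 95% Poisson interval of its lowest library, D6_100X replicate 2, reached from 0.867 to 1.73 FPKM, which covers counting error only.

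At D6 the question was whether the secondary wall genes differed between carbon dot and control roots. BC1 fell to 9.79 ± 2.12 FPKM in D6_100X, against 29.3 ± 4.57 in D6_CK (SD, n = 2 each), which is 33.4% of the control level. Its log2 fold change was -1.50 ± 0.17 (SE, 95% interval -1.89 to -1.10, limma adjusted p = 0.0350). It was the only member past the adjusted threshold of 0.05, 1 of 7, where 27 of the 22794 tested loci passed downwards, 0.118%. Fold changes here and below are on the log2(FPKM + 1) scale, which understates the change of low genes such as MYB46.

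The 3 cellulose synthase genes fell less than BC1 and did not pass, with CESA4 at 54.7%, CESA7 at 53.9% and CESA9 at 52.9% of their control means. CESA4 averaged 49.3 ± 12.2 FPKM in D6_100X and 90.2 ± 8.99 in D6_CK (log2 fold change -0.88, limma adjusted p = 0.146). CESA7 averaged 55.8 ± 12.1 FPKM in D6_100X and 103.5 ± 13.9 in D6_CK (-0.89, adjusted p = 0.136). CESA9 averaged 45.9 ± 14.4 FPKM in D6_100X and 86.7 ± 10.7 in D6_CK (-0.93, adjusted p = 0.156). Their 95% intervals ran from -1.40 to -0.35, from -1.40 to -0.38 and from -1.51 to -0.36, and with BC1 they were the 4 members with an unadjusted limma p under 0.05, a level reached by 15.8% of all tested loci. In bulk roots fewer cells that make secondary walls and less RNA per such cell cannot be told apart.

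None of the 3 regulators passed at D6, and their intervals all included 0. SWN1 was at 77.9% of the control mean in D6_100X (log2 fold change -0.34, 95% interval -1.14 to 0.45, limma adjusted p = 0.664), SWN2 at 74.1% (-0.36, -0.75 to 0.03, adjusted p = 0.349) and MYB46 at 69.3% (-0.35, -0.78 to 0.09, adjusted p = 0.405). For 6 of the 7 members both D6_100X libraries were below both D6_CK libraries, as they were for 30.5% of tested loci. The exception was MYB46, for which D6_100X replicate 1 and D6_CK replicate 2 had 53 fragments each. The fold change was below 0 for 7 of 7 members, against 53.3% of tested loci, and the members' median was -0.88 against -0.02 over all tested loci. CESA4, CESA7 and CESA9 had nearly the same profile, as described below. Counts and medians of members here and below are thus not those of independent genes.

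The call on BC1 at D6 was a narrow one. Its limma adjusted p was 0.0502 with a pseudocount of 0.1 and 0.0652 without a filter on low values. Calls over all tested loci fell as well, from 119 to 16 and 11. The BC1 call was also lost without any single library of D6_100X, D6_CK or D4_CK, where far fewer loci passed over the whole table. The fold change of BC1 stayed between -1.70 and -1.30 in all these fits. Single loci of other marker lists differed between the same groups, while others overlapped. Of the 2 root hair loci, EXPA17 stood at 3.68 and 7.21 FPKM in D6_100X and 16.8 and 24.96 in D6_CK, and the other, unnamed locus overlapped, at 12.04 and 14.6 in D6_100X and 14.02 and 16.6 in D6_CK (sums 15.7 to 21.8 in D6_100X and 30.8 to 41.6 in D6_CK). The sum of the 4 root loci was 1742 to 2327 FPKM in D6_100X and 2859 to 2865 in D6_CK, and it was carried by an unnamed locus at 980.7 and 1172 in D6_100X and 1894 in both D6_CK libraries. The silicon transporter genes NIP2-1, at 583.8 and 804.9 FPKM in D6_100X and 647.9 and 630.7 in D6_CK, and LSI2, at 169.8 and 337.0 in D6_100X and 297.0 and 315.5 in D6_CK, overlapped, and NRAMP5 was at 8.11 and 12.7 in D6_100X and 19.9 and 24.5 in D6_CK. The 2 proliferation loci summed to 110.0 to 114.5 FPKM in D6_100X and 133.7 to 134.6 in D6_CK, and no locus of these 3 lists was at 0. Their part in the result was not tested.

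At D4 the same comparison gave no call. BC1 averaged 86.6 ± 3.85 FPKM in D4_100X and 85.5 ± 7.79 in D4_CK, a log2 fold change of 0.02 with a 95% interval of -0.38 to 0.42 (limma adjusted p = 1). CESA4 averaged 202.7 ± 43.8 FPKM in D4_100X and 202.8 ± 28.1 in D4_CK (interval -0.53 to 0.51), CESA7 253.0 ± 50.4 and 241.4 ± 36.9 (-0.44 to 0.57), and CESA9 199.2 ± 38.3 and 190.5 ± 27.8 (-0.52 to 0.63). The intervals of all 4 wall-building genes included 0. For the regulators they were -0.94 to 0.65 for SWN1, -0.60 to 0.18 for SWN2 and -0.33 to 0.54 for MYB46. Same-numbered D4 libraries deviated together, with a correlation of 0.602 across tested loci. These intervals take no account of that. In all, 0 of 7 members passed with limma, as did 0% of the 22794 tested loci. At an unadjusted p under 0.05 there were 0 members among 432 loci, 1.9%, and limma voom on the fragments recovered from the FPKM values also called 0 members. SWN2 was the only member whose D4 groups did not overlap downwards, 1 of 7, against 10.7% of tested loci.

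Whether the carbon dot effect differed between D6 and D4 was tested as the difference of the 2 effects. For BC1 the D6 effect was lower than the D4 effect by a log2 difference of -1.52 ± 0.24 (SE), with an unadjusted limma p of 0.000412 and an adjusted p of 0.163. The difference was -0.87 for CESA4, -0.95 for CESA7 and -0.99 for CESA9, with adjusted p-values of 0.483, 0.442 and 0.469. It was -0.20 for SWN1, -0.14 for SWN2 and -0.45 for MYB46. No member passed, 0 of 7, where 2 of all tested loci did, 0.00877%, and voom called 0 members as well. The 4 wall-building members had an unadjusted p under 0.05, as did 9.27% of tested loci, so a difference between the samplings in the carbon dot effect is not shown for any of the 7 genes after adjustment.

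**Figure D2:**
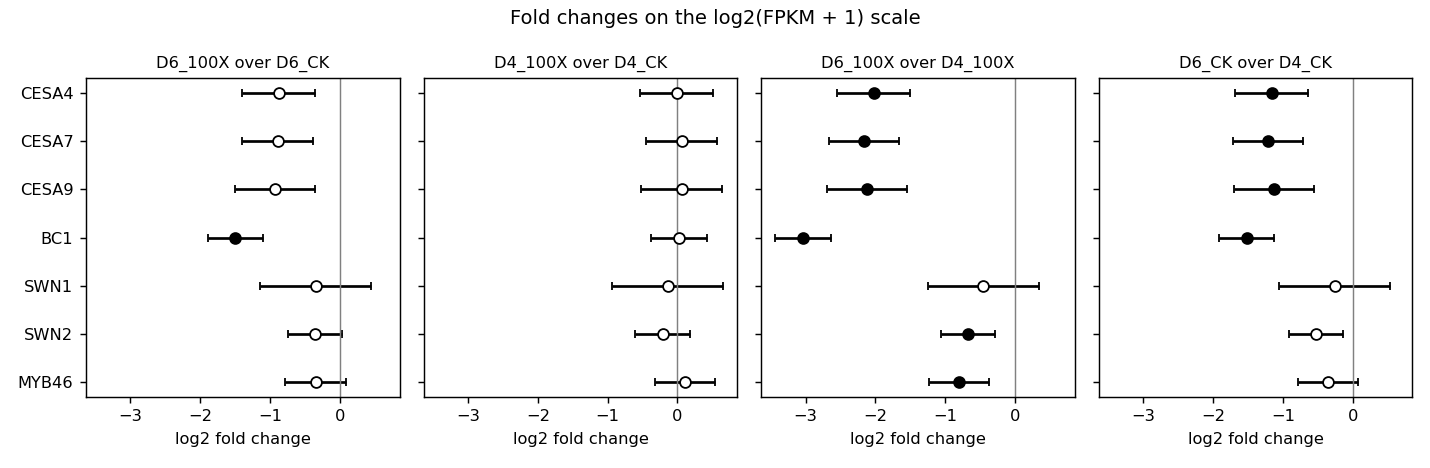
Log2 fold change of each gene on the log2(FPKM + 1) scale (horizontal axes) with its 95% limma interval, in 4 panels for D6_100X over D6_CK, D4_100X over D4_CK, D6_100X over D4_100X and D6_CK over D4_CK. Filled points passed the adjusted threshold of 0.05; BC1 lies farthest to the left in the D6_100X over D6_CK panel (-1.50) and in the D6_100X over D4_100X panel (-3.03).

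The D6 and D4 samplings were compared within each treatment. In carbon dot roots 6 of 7 members fell at D6, where 15.3% of tested loci did. BC1 fell to 11.3% of its D4_100X mean (log2 fold change -3.03 ± 0.17 SE, limma adjusted p = 0.000305). CESA4 fell to 24.3%, CESA7 to 22.1% and CESA9 to 23.02% of their D4_100X means, with log2 fold changes of -2.02, -2.16 and -2.12 and adjusted p-values of 0.00159, 0.00122 and 0.00184. Among the regulators SWN2 fell to 58.1% (-0.67, adjusted p = 0.0234) and MYB46 to 45.4% (-0.81, adjusted p = 0.0182), while SWN1 averaged 11.3 ± 2.12 FPKM in D6_100X and 16.3 ± 6.42 in D4_100X (-0.46, adjusted p = 0.342). For 6 of 7 members the D6_100X libraries were all below the D4_100X libraries, as for 36.9% of tested loci, and SWN1 was the exception. The SWN2 call was lost without D4_100X replicate 2, D6_100X replicate 1 or D6_100X replicate 2. The MYB46 call was lost without D4_100X replicate 2 or D6_100X replicate 2. Fewer loci passed over the whole table in these fits as well. With single libraries left out, the log2 fold change was -0.80 to -0.54 for SWN2 and -0.99 to -0.62 for MYB46.

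In the controls 4 of 7 members fell at D6, all of them wall-building genes, where 4.72% of tested loci fell. BC1 fell to 34.3% of its D4_CK mean (log2 fold change -1.52 ± 0.17 SE, limma adjusted p = 0.00749). CESA4 fell to 44.5% (-1.16, adjusted p = 0.0257), CESA7 to 42.9% (-1.21, adjusted p = 0.0207) and CESA9 to 45.5% (-1.12, adjusted p = 0.0358). The regulators did not pass. SWN2 averaged 6.41 ± 1.34 FPKM in D6_CK and 9.59 ± 0.358 in D4_CK (-0.53, adjusted p = 0.0920), MYB46 2.26 ± 0.528 and 3.13 ± 0.251 (-0.35, adjusted p = 0.267), and SWN1 14.5 ± 0.869 and 18.2 ± 7.49 (-0.25, adjusted p = 0.672). The D6_CK and D4_CK libraries overlapped for SWN1 alone, and 6 of 7 members had all D6_CK below all D4_CK libraries, as 34.1% of tested loci had. The root loci did not move together between samplings. The unnamed locus that carries their sum stood at 1894 FPKM in both D6_CK libraries and at 2892 and 3549 in D4_CK, whereas NIP2-1 stood at 647.9 and 630.7 in D6_CK and 175.2 and 295.6 in D4_CK, and LSI2 at 297.0 and 315.5 in D6_CK and 89.9 and 156.6 in D4_CK. The 2 root hair loci summed to 30.8 to 41.6 FPKM in D6_CK and 28.95 to 66.3 in D4_CK, which overlap. The part of these genes in the differences between samplings was not tested. Some or all of the 4 member calls were lost when a D4_CK or D6_CK library was left out, where fewer loci passed over the whole table as well. With single libraries left out, the log2 fold change stayed between -1.67 and -1.36 for BC1 and between -1.30 and -1.02 for CESA4. It stayed between -1.37 and -1.06 for CESA7 and between -1.27 and -0.98 for CESA9. These comparisons share libraries with those above, so they are not independent views of the same genes.

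For the wall-building genes the group means thus stood in the order D6_100X, D6_CK and then the D4 groups. The step between D6_100X and D6_CK passed narrowly for BC1, with the limits given above, the step between D6_CK and D4_CK passed for all 4, and the D4_100X and D4_CK means lay closer together than their replicates. For SWN1, SWN2 and MYB46 neither of the D6 steps passed, and the D6_CK libraries overlapped those of D4_100X for SWN1 and SWN2.

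CESA4, CESA7 and CESA9 kept nearly fixed proportions while their sum varied between 123.6 and 748.7 FPKM. CESA4 made up 30.6% to 32.9% of the summed FPKM of the 3 in each library, CESA7 36.1% to 38.7% and CESA9 28.9% to 31.4%. The 3 genes may share some reads with each other and with other cellulose synthase genes, since the handling of fragments that match several genes is not given in the sources used here. The likeness of whole profiles was measured as the root mean square difference, over the 8 libraries, between log2(FPKM + 1) values each centred on its own mean. CESA4 and CESA9 differed by 0.052, CESA4 and CESA7 by 0.061, and CESA7 and CESA9 by 0.063. For each of them the other 2 were the nearest of all 22793 other tested loci. The measure reads the same 8 libraries for all genes and is a description.

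The cellulose synthase genes also followed each other between replicates of a group. Replicate 1 over replicate 2 was 1.43 for CESA4, 1.36 for CESA7 and 1.57 for CESA9 in D6_100X, and 0.868, 0.827 and 0.840 in D6_CK. In D4_100X it was 1.36, 1.33 and 1.32, and in D4_CK 1.22, 1.24 and 1.23. Across all members, 7 of 7 were higher in replicate 1 of D6_100X, 2 of 7 in D6_CK, 5 of 7 in D4_100X and 7 of 7 in D4_CK.

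Outside the members, LOC_Os05g48850 and LOC_Os02g19640 had the profiles closest to the mean of the 3, with root mean square differences of 0.097 and 0.098. LOC_Os05g48850 stood at 8.66 and 5.65 FPKM in D6_100X, 12.9 and 14.0 in D6_CK, 34.3 and 25.7 in D4_100X and 30.3 and 25.05 in D4_CK. LOC_Os02g19640 stood at 4.53 and 2.80 FPKM in D6_100X, 7.30 and 8.79 in D6_CK, 25.3 and 19.4 in D4_100X and 24.2 and 17.8 in D4_CK. Neither locus is annotated in the sources used here. Of the other members, BC1 ranked 264, SWN2 1405, MYB46 1459 and SWN1 3132 among the 22791 loci outside the 3. Primary wall and xylan genes with a matched symbol lay as close or closer in several cases. The xylan gene IRX9 ranked 190, CESA2, CESA8, CESA1, CESA6, CESA5 and CESA3 ranked 300 to 1189, and the xylan gene IRX14 ranked 1354. The xylan genes XAT2 and IRX9L were farther off, at 3588 and 3730.

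**Figure D3:**
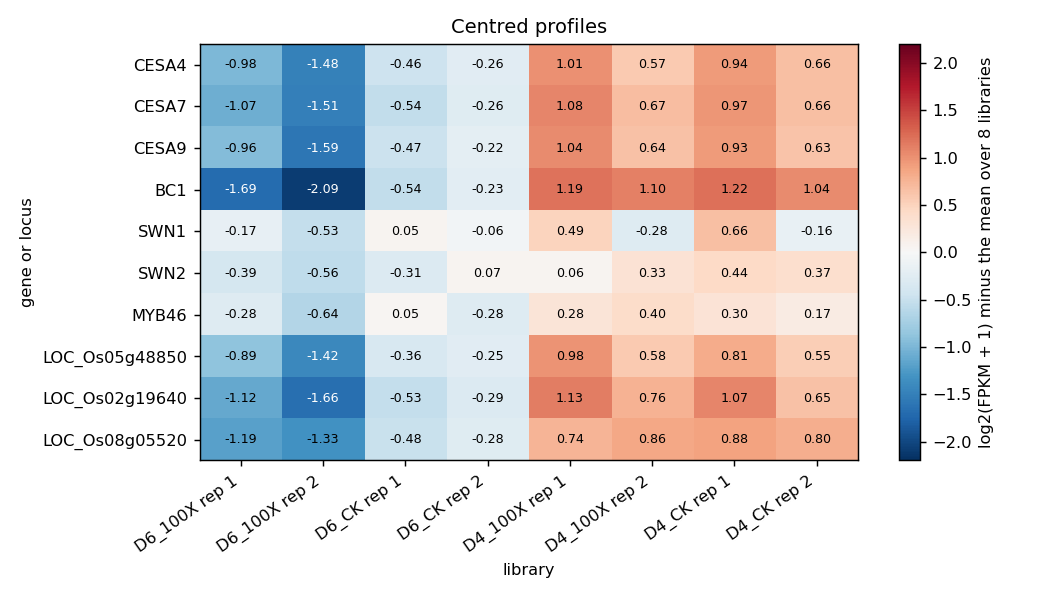
Centred profiles of the members, of the 2 closest loci and of LOC_Os08g05520, a locus of the regulator list that ranked 13 in likeness. Each cell gives log2(FPKM + 1) minus the gene's mean over the 8 libraries (columns), with red above and blue below that mean. The rows of CESA4, CESA7 and CESA9 differ by root mean squares of 0.052 to 0.063, and the D6_100X columns are the bluest for all 4 wall-building genes.

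Relative to the cellulose synthase genes, which themselves fell at D6, BC1 was lower and SWN1 and SWN2 were higher, while the MYB46 ratio did not pass. In FPKM neither SWN1 nor SWN2 had a higher mean at D6 than at D4 in either treatment. BC1 was at 19.0% and 20.2% of the geometric mean of the 3 in D6_100X, 30.6% and 32.2% in D6_CK, 36.0% and 45.1% in D4_100X and 39.2% and 42.4% in D4_CK. SWN1 was at 21.5% and 23.9% in D6_100X, 17.7% and 13.7% in D6_CK, 8.40% and 6.33% in D4_100X and 10.1% and 6.82% in D4_CK. SWN2 was at 8.58% and 10.8% in D6_100X, 6.40% and 7.28% in D6_CK, 2.96% and 4.85% in D4_100X and 4.24% and 4.95% in D4_CK. MYB46 was at 3.18% and 3.04% in D6_100X, 3.08% and 1.87% in D6_CK, 1.32% and 1.95% in D4_100X and 1.42% and 1.56% in D4_CK. For BC1, SWN1 and SWN2 the D6 and D4 libraries did not overlap, and for MYB46 they did, since D6_CK replicate 2 lay below D4_100X replicate 2. The share of all tested loci whose ratio to the 3 separates in this way was not computed. The separation is therefore not shown to be particular to these members.

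These ratios were compared between the 4 D6 and the 4 D4 libraries with a two-sided exact permutation test, which pools both treatments. The test takes the libraries as independent and exchangeable. Yet same-numbered D4 libraries deviated together, and the BC1 ratios of D6_100X and D6_CK did not overlap, so its p-values are approximate. Because the 3 cellulose synthase genes fell at D6, any gene that stayed level or fell less has a higher ratio there. A higher ratio that passed is thus no rise of the gene itself and largely restates the fall of the 3. The log2 ratio to the 3 cellulose synthase genes differed by -0.71 for BC1, which was lower at D6, and by 1.27 for SWN1 and 0.96 for SWN2, which were higher, each with an exact p of 0.0286, the smallest that 4 against 4 libraries allow, and an adjusted p of 0.0357 over 5 ratios. For MYB46 the difference was 0.82 (exact p = 0.0571, adjusted p = 0.0571). The fifth ratio, of the summed FPKM of the primary wall genes CESA1, CESA2, CESA3, CESA5, CESA6 and CESA8 to the same 3 genes, was 0.83 higher at D6 (exact p = 0.0286, adjusted p = 0.0357). With 2 libraries a group, the treatments cannot be compared this way, since 0.333 is the smallest exact p. CESA4, CESA7 and CESA9 made up 22.9% and 18.0% of the summed FPKM of all 9 CESA genes in D6_100X, 25.7% and 29.0% in D6_CK, 39.6% and 32.8% in D4_100X and 37.7% and 32.5% in D4_CK. The D6_100X libraries had the lowest shares and the D6 and D4 libraries did not overlap, which is nearly the same statement as the fifth ratio.

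**Figure D4:**
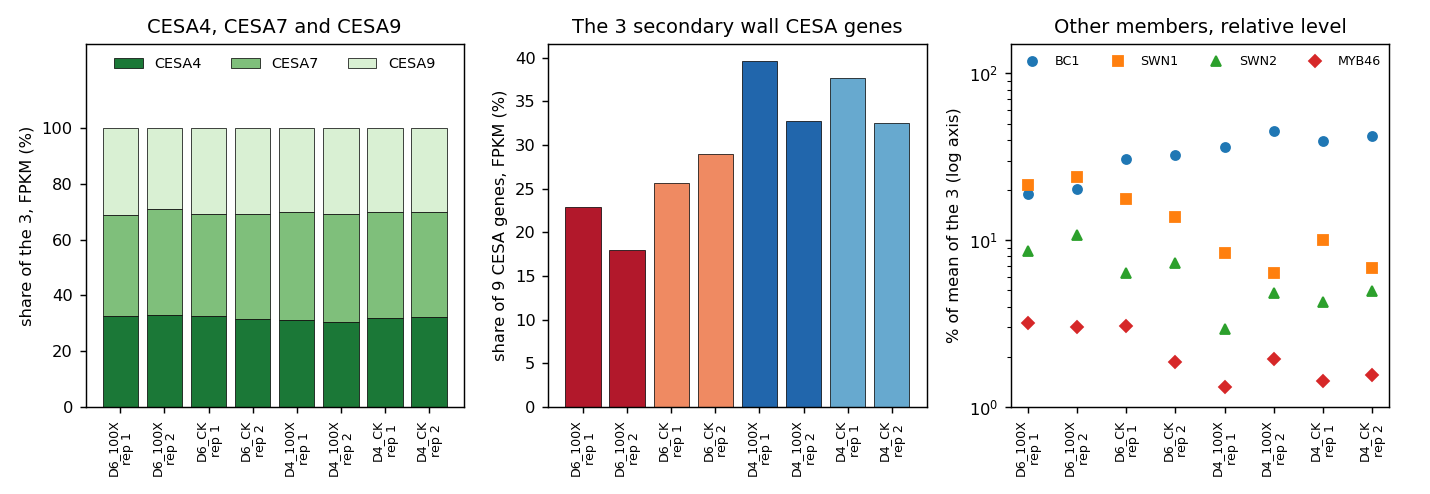
Relative levels in each library: the shares of CESA4, CESA7 and CESA9 in their summed FPKM (left), their joint share of 9 CESA genes (middle), and BC1, SWN1, SWN2 and MYB46 as a percentage of the geometric mean of the 3 on a log axis (right). The shares on the left stay within 28.9% to 38.7%, the joint share lies between 18.0% and 39.6%, and BC1 lies below SWN1 in both D6_100X libraries.

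The members were then set beside 4 lists of other wall genes, given here by counts over the whole table and medians. The lists held 8 primary wall cellulose synthases, 10 other regulators, 11 genes of cellulose assembly and 7 of xylan synthesis, of which 7, 10, 10 and 7 were tested and 13 of 36 had a matched symbol. For D6_100X over D6_CK, 0 of 7 primary wall cellulose synthases passed (median log2 fold change -0.38). Of the regulators 1 of 10 fell and 0 rose (0.03), where 0.118% of tested loci fell and 0.404% rose. In the other lists 0 of 10 assembly genes (-0.10) and 0 of 7 xylan genes passed (-0.18). The members' median was -0.88. The regulator that fell was LOC_Os08g05520, unnamed here, which stood at 4.13 and 3.63 FPKM in D6_100X and 7.36 and 8.65 in D6_CK (-0.88, limma adjusted p = 0.0450). Its profile ranked 13 among loci outside the 3 in likeness to them, with a difference of 0.174. Its call was lost without any single library of D6_100X, D6_CK or D4_CK, with a pseudocount of 0.1, without a filter and without a trend. Fewer loci passed over the whole table in each of these fits as well. For D4_100X over D4_CK 0 genes of these lists passed.

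For D6_100X over D4_100X, 6 of 7 primary wall cellulose synthases fell, where 15.3% of tested loci did, and 0 rose, with a median of -1.05. CESA1 averaged 142.9 ± 2.86 FPKM in D6_100X and 307.7 ± 13.3 in D4_100X (-1.10), and CESA8 142.8 ± 4.64 and 302.4 ± 5.55 (-1.08). CESA2, CESA6, CESA5 and CESA3 also fell, by log2 fold changes of -1.30, -1.05, -0.80 and -0.72. Of the regulators 4 fell and 1 rose (median 0.09), where 14.5% of tested loci rose, and the one that rose was LOC_Os09g36250 at 24.04 ± 3.49 FPKM in D6_100X and 11.4 ± 2.82 in D4_100X. Of the assembly genes 5 fell and 1 rose (-0.33). Of the xylan genes 5 fell and 0 rose (-0.60). Among them IRX9, a glycosyltransferase gene needed for the xylan backbone, averaged 1.75 ± 0.526 FPKM in D6_100X and 6.24 ± 0.0376 in D4_100X (-1.41), IRX14, the most abundant, 138.7 ± 8.10 and 233.2 ± 30.7 (-0.74), and XAT2, an arabinosyltransferase gene, 20.9 ± 0.352 and 28.2 ± 0.767 (-0.42). The members' median in this comparison was -2.02, and that of all tested loci was -0.04. Fewer of the regulators and of the xylan genes passed without D6_100X replicate 1 or without D6_100X replicate 2. The same held for all tested loci in these fits.

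For D6_CK over D4_CK, 6 of 7 primary wall cellulose synthases fell (median -0.65) and 2 of 10 regulators (-0.12). So did 3 of 10 assembly genes (-0.21) and 2 of 7 xylan genes (-0.45), against 4.72% of tested loci. In the 4 lists 0 rose, where 5.42% of tested loci did. The members' median was -1.12, and that of all tested loci was -0.05. CESA1 averaged 202.2 ± 4.95 FPKM in D6_CK and 317.7 ± 25.2 in D4_CK (-0.65), CESA8 185.5 ± 0.845 and 306.3 ± 0.00269 (-0.72), and IRX9 2.10 ± 0.0752 and 6.68 ± 1.41 (-1.30). These counts depended on single libraries. Calls in these lists were lost when a library of D6_CK, D4_CK or D6_100X was left out. Fewer loci passed over the whole table in each of these fits as well, so this dependence is not shown to be particular to the lists.

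**Figure D5:**
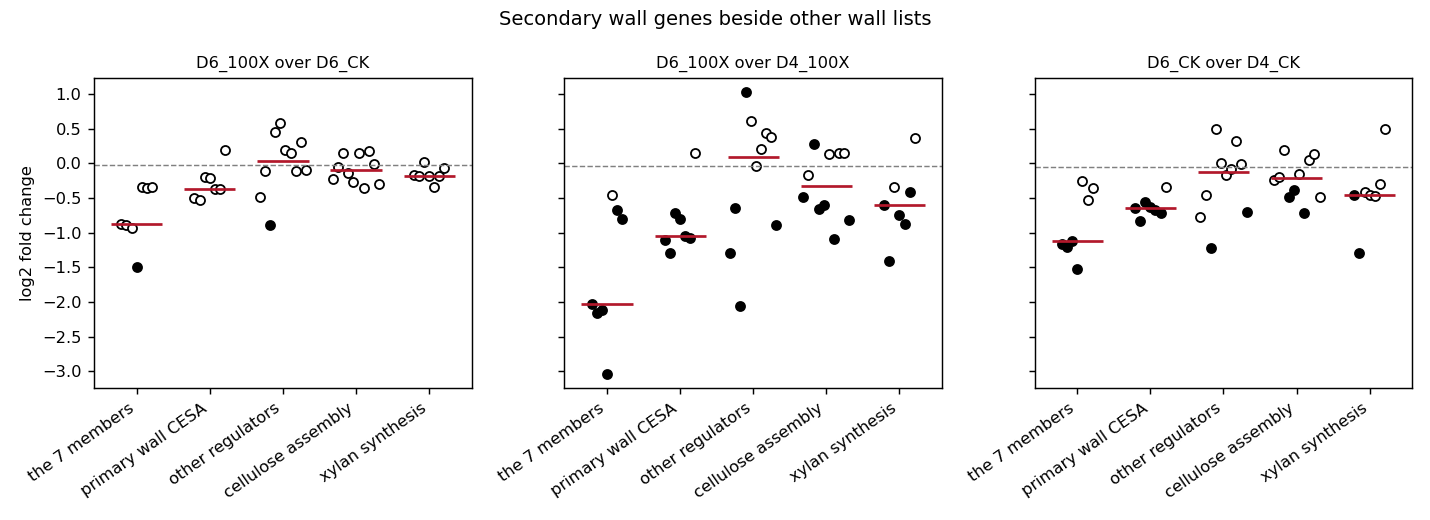
Log2 fold changes of the members and of 4 other wall gene lists (horizontal axis) for D6_100X over D6_CK, D6_100X over D4_100X and D6_CK over D4_CK. Filled points passed the adjusted threshold of 0.05, red lines are list medians and the dashed line the median of all tested loci; the members' medians are -0.88, -2.02 and -1.12, against -0.38, -1.05 and -0.65 for the primary wall cellulose synthases.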

How the data were processed

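The authors deposited FPKM per locus for 8 root libraries. The tools per the submitters' processing notes were featureCounts 1.6.4, SAMtools, HISAT2 and fastp. Build, annotation, strandedness and settings were not given in the sources used here. Tests used limma 3.58.1 in R 4.3.3 (eBayes with a trend) on log2(FPKM + 1), as 1 fit of 4 group means over the 22794 loci with at least 1 FPKM in at least 2 libraries, with 4 residual degrees of freedom and Benjamini-Hochberg adjustment over these loci. All 7 members passed this filter. Fragments were recovered from the FPKM steps: 993 of 1115 low loci (89.1%) were at whole steps within 0.002 steps, and 100.0% of loci above 0 had a length giving whole fragments within 0.005 fragments plus a share of 3e-07. These served the library totals, Poisson intervals and voom. Fragment recovery and the limma fit were tested on simulated data. Members and lists were chosen with earlier results of these data known. All members are named. From the other lists, genes past the threshold or most abundant are named where RefSeq held the symbol within 0.1 chromosome lengths of the implied place. Alternatives covered pseudocount, filter, scaling, eBayes settings, replicate block, left-out libraries, the libraries fitted and voom.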

Additional observations from a re-analysis of the deposited data

Results flagged for a closer look

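The level of MYB46 relative to the geometric mean of CESA4, CESA7 and CESA9 was far lower in 1 of the 4 D6 libraries than in the others. In D6_CK replicate 2 the log2 ratio was -5.75, while the highest of the 4 was -4.98. The MYB46 value in that library rests on 53 fragments. In groups of this size such a gap turns up by chance in about 1 of 20. It was looked for in each of the 5 ratios at both samplings, so 1 such gap among them would not be unusual.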

How the results depend on the processing

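For D6_100X over D6_CK the number of members called was 0 with a pseudocount of 0.1, 0 without a filter and 0 with the replicate block, against 1. For D6_CK over D4_CK it was 2 without a filter, where CESA4 (limma adjusted p = 0.0549) and CESA9 (0.0714) were lost. For D6_100X over D4_100X it was 5 with a mean FPKM of at least 5, which leaves MYB46 out of the test. In each of these comparisons leaving out some of the single libraries cost member calls. Fewer loci passed over the whole table in those fits as well. Voom gave BC1 a log2 fold change of -1.59 at D6 (adjusted p = 0.0240). Over all tested loci the calls at D6 were 119, with 697 when only the 4 D6 libraries were fitted, 74 without a trend, 16 with a pseudocount of 0.1 and 11 each without a filter and with the replicate block. For D6_CK over D4_CK they were 2311, with 1446 without a filter and 1292 from the libraries compared. At D4 they were 0, with 2 without a filter. For the difference they were 2, with 0 under a pseudocount of 0.1, no filter, a mean FPKM of at least 5, the replicate block and voom.

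The direction turned only where a single library was left out, and only for fold changes that had not passed. At D4 they ranged from -0.23 to 0.21 for CESA4, -0.14 to 0.27 for CESA7, -0.14 to 0.26 for CESA9, -0.072 to 0.11 for BC1 and -0.55 to 0.27 for SWN1. SWN1 ranged from -0.66 to 0.16 for D6_CK over D4_CK and from -0.61 to 0.21 for the difference, and SWN2 from -0.33 to 0.041 for the difference. Leaving out a library left 1 of its group, which is assumed to vary like the other groups.

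Same-numbered libraries deviated together at D4, where deviations from the group means correlated across loci at 0.602 between D4_100X and D4_CK. The correlation was 0.139 between D6_100X and D4_CK, -0.112 between D6_100X and D6_CK, and from -0.09 to 0.038 for the other 3 pairs of groups, so the numbers were not taken to pair the libraries as a whole. With the replicate block 0 members passed at D4, as without it. The block was a single term shared by both samplings, so it cannot describe a pairing at D4 alone, and no such pairing was fitted. With the replicate block BC1 at D6 had an adjusted p of 0.0524, no other member changed its call, and LOC_Os08g05520 no longer passed. With log2(FPKM + 1), the MYB46 ratio difference was 1.06 (exact p = 0.0286). With 3 against 4 libraries no ratio could pass, and the adjusted p was 0.0571 to 0.0714. The cause of these changes was not tested. MYB46, with 35 to 102 fragments, was the member most limited by depth.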
